A study of Gallus gallus with 3 samples.

Results

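The miR-181 family was represented on the chicken miRNA array by 2 probes, gga-miR-181a and gga-miR-181b, out of 542 chicken miRNAs. The members were all probes whose name was miR-181 followed by a letter from a to d, a rule on names alone. gga-miR-181b is one of the miRNAs that the study singled out in embryos, which were not analysed here, and listed among predicted regulators of the growth hormone receptor gene GHR, and its sister gga-miR-181a served for comparison.

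Total RNA came from the leg muscle of 7-week-old dwarf and normal recessive White Rock chickens. This is a meat-type breed. The dwarf strain carries a deletion that takes the end of the last coding exon and part of the 3′ untranslated region of GHR, and the normal strain served as the control. Both strains had been bred for many generations and were fed under the same conditions, and no treatment is described for either group. Each of 3 two-colour arrays compared 1 pool of dwarf RNA with 1 pool of normal RNA, and each pool held RNA of 3 chickens (9 chickens per strain). The dwarf pool was labelled with the dye Cy5 on arrays 1 and 3 and with Cy3 on array 2. The sex of the 7-week-old chickens is not given in the sources used here. Strains kept apart for generations can also differ at other loci, so the GHR deletion and the rest of the strain background cannot be told apart. Values of single chickens are not seen in pools, and each p-value below rests on 3 pools per strain or on 3 arrays. For limma, the standard errors, intervals and p-values also draw on the spread between arrays of all tested miRNAs.

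A mature miRNA guides the Argonaute protein to messenger RNAs, mostly in their 3′ untranslated regions, and lowers their stability or translation. Most of the pairing is made by the seed, which is bases 2 to 8 from the 5′ end, so miRNAs with the same seed share many predicted targets. The miR-181 family is conserved among vertebrates. In mammals it is best known from developing lymphocytes, and in mouse myoblasts miR-181 rises during differentiation and lowers the homeobox protein Hox-A11.

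The target sequences given for the probes are shown first because they set what the array could tell apart. Both are written 5′ to 3′ with the seed in capitals.
gga-miR-181a: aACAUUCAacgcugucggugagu
gga-miR-181b: aACAUUCAuugcugucgguggg
The sisters had the same seed, ACAUUCA, and no other of the 542 miRNAs on the array held it. Counted from the 5′ end, with the base of gga-miR-181a first, they differed over 22 shared bases by A9U, C10U and A21G. gga-miR-181a also had a final U at position 23. Position by position, the nearest other miRNA on the array differed from gga-miR-181a at 11 positions and from gga-miR-181b at 10 positions, so the closest sequence to each probe's target was that of its sister. With 3 substitutions between them, hybridization of 1 sister to the other's probe cannot be measured on these arrays.

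The RefSeq annotation of the assembly bGalGal1.mat.broiler.GRCg7b lists 4 hairpin genes of the family. MIR181A1 and MIR181B1 are each other's nearest genes and lie within the uncharacterized genes LOC107053920 and LOC121113415. MIR181A2 and MIR181B2 lie within NR6A1, which encodes a nuclear receptor known as germ cell nuclear factor. Each probe therefore has 2 genes as possible sources, and the mature sequence does not tell them apart. Of the passenger strands, the other arms of the hairpins, only gga-miR-181a* had a probe on the array.
gga-miR-181a*: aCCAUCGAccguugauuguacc
Listed from array 1 to array 3, its signal was 3.18, -1.72 and 2.40 for dwarf chickens and -11.7, 0.857 and -2.23 for normal chickens. This passenger strand was thus below the detection signal of 32 in all 6 pools, whereas both guide strands were above it in all 6. The passenger strands of the miR-181b hairpins were not measured.

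The arrays held 3968 spots, of which 3252 were miRNA spots, with 6 spots for each of the 542 miRNAs. A mean signal above 32 was reached by 85 miRNAs in dwarf chickens and by 78 in normal chickens, and the 86 that reached it in either strain were tested. As a check on the tissue, 6 of the 7 listed skeletal muscle miRNAs were tested, and miR-1b was at most 15.3. From array 1 to array 3, their summed signal was 76028, 31305 and 42128 for dwarf chickens and 64721, 44753 and 55362 for normal chickens. The 3 listed brain miRNAs stayed at or below 6.14 in every pool.

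**Figure D1:**
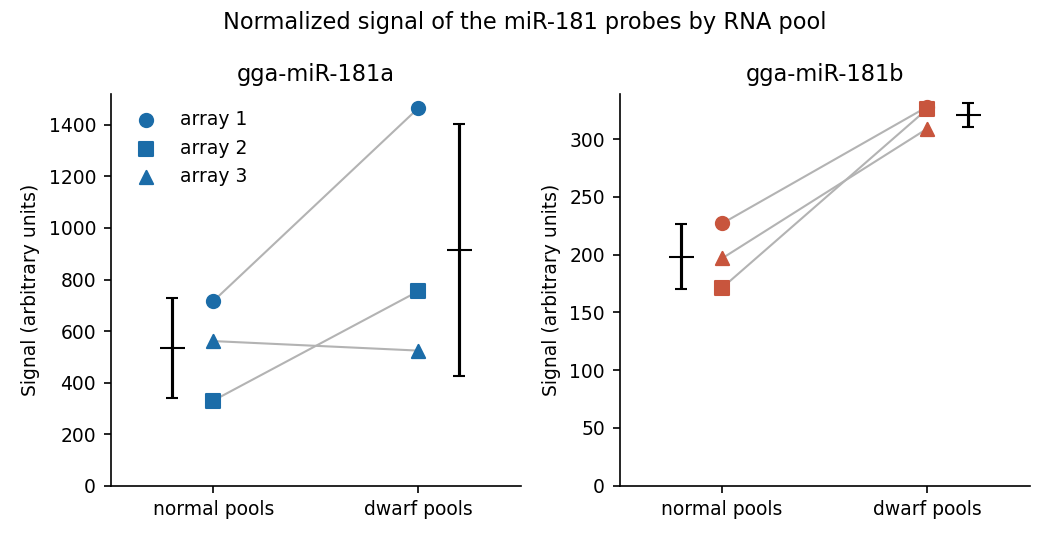
Normalized signal of gga-miR-181a (left) and gga-miR-181b (right) in arbitrary units for each RNA pool. Symbols give the array and grey lines join the 2 pools of an array, while the bars beside the points give the mean ± SD of 3 pools. The dwarf pools of gga-miR-181b lie between 309 and 328, all above the normal pools at 171 to 227, whereas those of gga-miR-181a overlap the normal pools.

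gga-miR-181b gave a signal of 328 in the dwarf pool of array 1, 326 in that of array 2 and 309 in that of array 3. In the normal pools of the same arrays its signal was 227, 171 and 197. Every dwarf pool was therefore above every normal pool, and the lowest dwarf pool was 82.1 units above the highest normal pool. The same was true of 12 of the 86 tested miRNAs, or 14.0%, and no tested miRNA had all dwarf pools below all normal pools. The signals leaned toward dwarf in general, with a median log2 ratio of dwarf over normal of 0.17 over the 86. The mean signal of gga-miR-181b was 321 ± 10.4 (SD, n = 3 pools) in dwarf and 198 ± 27.9 (SD, n = 3 pools) in normal chickens. Within arrays the dwarf pool was 1.45, 1.90 and 1.57 times the normal pool, with a geometric mean of 1.63. Without the pairing, the exact permutation test gave a two-sided p = 0.1, the smallest that 3 pools against 3 can give, so this test cannot reach 0.05. The separation rests on the processing. With the background taken from the empty spots, the lowest dwarf pool minus the highest normal pool was -87.9. Without loess and scaling it was -199, but that setting keeps the brighter Cy3 channel, which held the normal pool on arrays 1 and 3. It therefore cannot tell the strains from the dyes. The loess curve used for these signals was fitted to the intensities as corrected for the ratios, not to the subtracted signals. A curve fitted to the subtracted spots, added after seeing the data, gave 70.5. The mean signals were then 312 in dwarf and 205 in normal pools.

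gga-miR-181a gave a dwarf signal of 1465, 755 and 524, listed from array 1 to array 3. Its signal in the normal pools was 716, 330 and 561. The groups overlapped, because the dwarf pool of array 3 was lower than the normal pools of arrays 1 and 3. The mean was 915 ± 490 (SD, n = 3 pools) in dwarf and 536 ± 194 (SD, n = 3 pools) in normal chickens (p = 0.3 by the same two-sided exact permutation test). The dwarf pool was 2.05 and 2.29 times the normal pool on arrays 1 and 2 and 0.934 times on array 3. Its mean fold was close to that of gga-miR-181b, with a geometric mean of 1.64, but the arrays differed more. The coefficient of variation of the dwarf pools was 53.6% for gga-miR-181a and 3.24% for gga-miR-181b, and that of the normal pools was 36.2% and 14.1%. Among the 6 spots of gga-miR-181b within an array, the dwarf signal varied by 26.9% on array 1 (241 to 441), by 9.50% on array 2 and by a value between these on array 3, so the 3 dwarf means lay closer together than the spots behind them. Without array 3, both remaining dwarf pools of gga-miR-181a were above both normal pools, by 38.9 units.

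**Figure D2:**
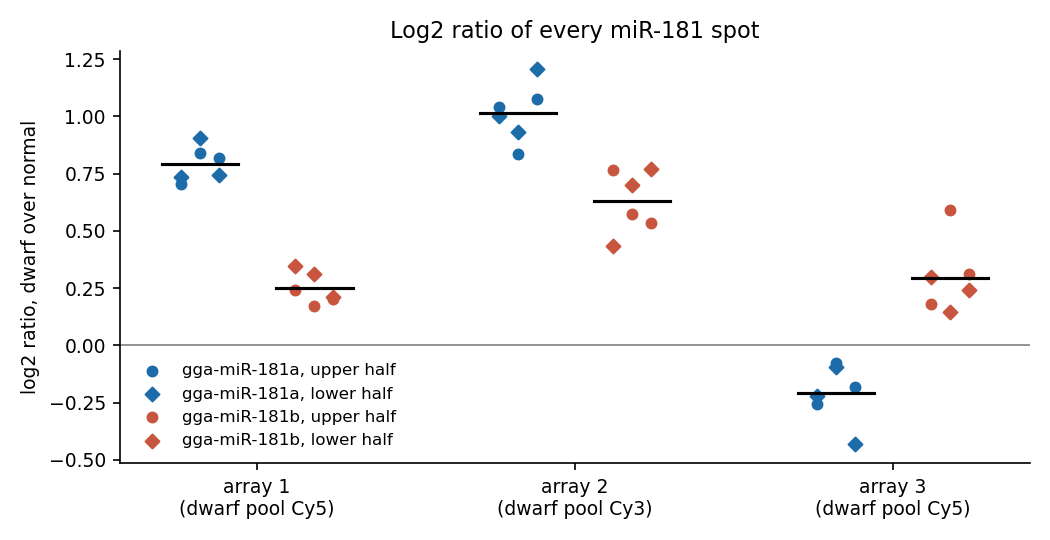
Log2 ratio of dwarf over normal after normexp and loess for each of the 6 spots of gga-miR-181a (blue) and gga-miR-181b (red) on each array. Circles are spots of the upper and diamonds spots of the lower part of the array, and black lines are the means of 6 spots. All 6 spots of gga-miR-181a lie below 0 on array 3 and above 0 on arrays 1 and 2, and all 18 spots of gga-miR-181b lie above 0.

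In the log2 ratios, the single spots of each member lay on the same side of 0 within each array. For gga-miR-181b, the log2 ratio of dwarf over normal after background correction with normexp and loess normalization was above 0 in 6 of 6 spots on every array. It ranged from 0.17 to 0.35 on array 1, from 0.43 to 0.77 on array 2 and from 0.15 to 0.59 on array 3. For gga-miR-181a all 6 spots were above 0 on array 1 (0.70 to 0.91) and on array 2 (0.84 to 1.20). On array 3 none of its 6 spots was above 0, and they ranged from -0.43 to -0.077. In these ratios the lower value on array 3 was thus shared by all 6 spots. It was also shared by the upper and the lower part of the array, with means of -0.17 and -0.25. The background-subtracted signals of array 3 did not share it at every spot. Dwarf was above normal at some spots (557 against 534 and 546 against 531) and below it at the others. Spots of 1 array share both RNA pools and are not replicates of a strain.

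The raw intensities show how much of each value was taken as background. In Cy3 the median local background was 829, 304 and 698 on arrays 1, 2 and 3, and in Cy5 it was 51.4, 44.3 and 53.2. It is a surface fitted through the miRNA spots, not a separate measurement. In Cy3 the brightest empty spot minus this surface was -7.47, 186 and 71.3 on arrays 1, 2 and 3, so every empty spot of array 1 lay below it. With the background from the empty spots, gga-miR-181b had mean signals of 317 in dwarf and 255 in normal pools. gga-miR-181b stood only 1.29 times over the fitted background in Cy3 on array 1 and 1.39 times on array 3, both times in the channel of the normal pool. On array 2, where Cy3 held the dwarf pool, it stood 3.49 times over background. In Cy5 it was 2.48, 4.43 and 4.90 times over background. The normal signal of gga-miR-181b on arrays 1 and 3 is therefore a small difference between 2 large intensities, with raw spots from 1022 to 1158 on array 1 and from 923 to 1046 on array 3. gga-miR-181a stood further out, at 1.92, 6.86 and 2.06 times the background in Cy3 and 8.58, 7.60 and 8.60 times in Cy5. Before loess the Cy3 channel was the brighter on every array for both members, so that the log2 ratio of dwarf over normal was -1.24, 2.44 and -1.01 for gga-miR-181a and -1.95, 2.09 and -0.75 for gga-miR-181b. Every ratio after loess is relative to the curve through all miRNAs of its array, and loess turned the sign for gga-miR-181b on arrays 1 and 3 and for gga-miR-181a on array 1.

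After loess gga-miR-181b had log2 ratios of 0.25, 0.63 and 0.29 from array 1 to array 3. A ratio above 0 on all 3 arrays was found in 18 of the 86 tested miRNAs (20.9%). The mean for gga-miR-181b was 0.39 (SD 0.21, standard error 0.17, 95% interval -0.024 to 0.81). The median of all 86 was 0.046. For gga-miR-181b, limma with Benjamini-Hochberg adjustment over the 86 gave an adjusted p = 0.651 (unadjusted p = 0.0605), and an exact permutation test that flips the signs of the 3 ratios gave p = 0.25, the smallest it can give. The background-subtracted signals gave a larger mean log2 ratio of 0.70 (adjusted p = 0.460 from limma, paired by array). In these signals the median of all 86 was also larger, at 0.17. Leaving out the offset of 50 that normexp adds to every intensity gave 0.44.

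gga-miR-181a had log2 ratios of 0.79, 1.02 and -0.21 from array 1 to array 3. The mean was 0.53, and the SD between arrays of 0.65 was larger than that mean (standard error 0.27, 95% interval -0.13 to 1.19). For this miRNA limma gave p = 0.0952 and an adjusted p = 0.788 (exact sign-flip permutation test, p = 0.5). Neither member passed the threshold of 0.05, nor did any of the other tested miRNAs (0 of 86, 0%). An unadjusted p under 0.05 from limma was found for 5 of the 86, and some such values arise among so many tests without any difference. Ordered by p, gga-miR-181b was number 8 and gga-miR-181a number 10 of the 86. The median SD between arrays over the 86 was 0.28, which lies between the SD of gga-miR-181b and that of gga-miR-181a.

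**Figure D3:**
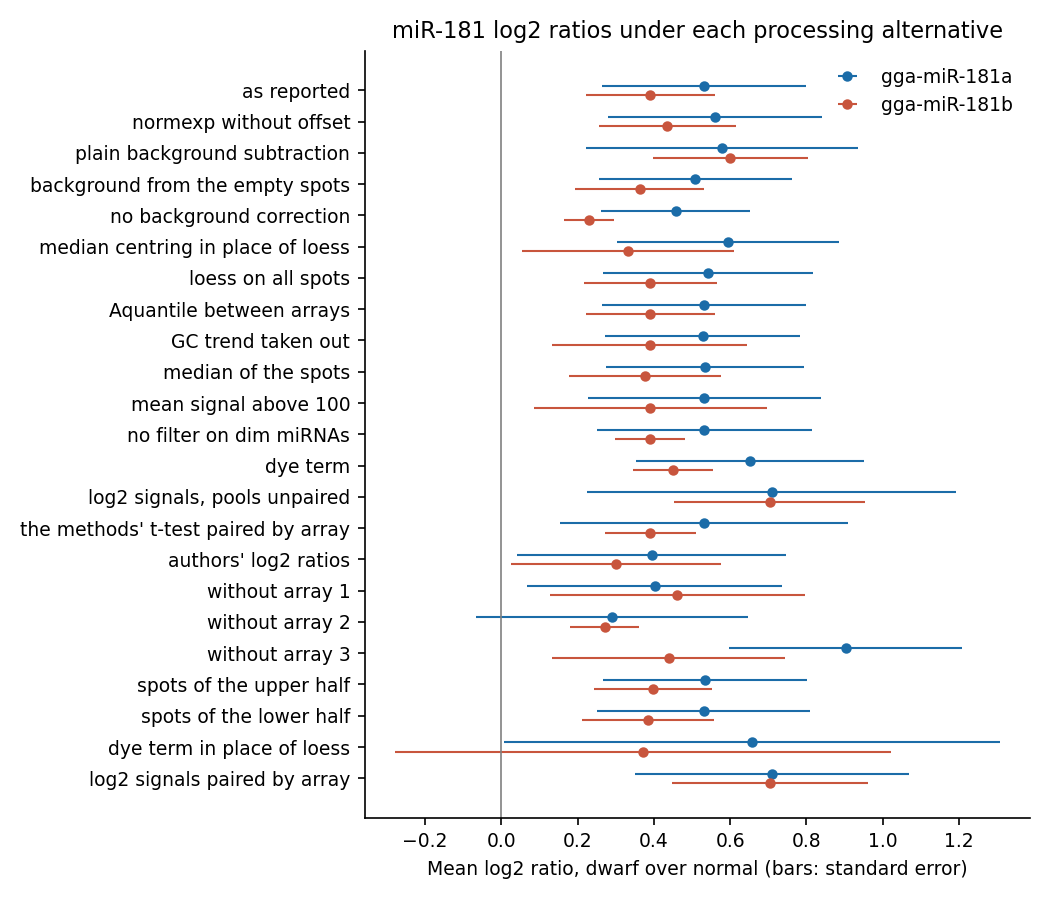
Mean log2 ratio of dwarf over normal (points) with its standard error (bars) for gga-miR-181a (blue) and gga-miR-181b (red), as reported and under each of 22 alternatives. Every mean lies above 0, from 0.29 to 0.90 for gga-miR-181a and from 0.23 to 0.70 for gga-miR-181b.

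The ratio of gga-miR-181a depended on array 3, being 0.90 without it (adjusted p = 0.112 from limma), 0.29 without array 2 and 0.40 without array 1. That of gga-miR-181b was between 0.27 and 0.46 when any 1 array was left out. The log2 ratios deposited by the authors, used as deposited and read as dwarf over normal, were 0.94, 0.78 and -0.54 for gga-miR-181a. For gga-miR-181b they were 0.42, 0.50 and -0.022. In those values the ratio of gga-miR-181b on array 3 was close to 0 and not above it. Their means were 0.39 (SD 0.81) and 0.30 (SD 0.28). A term for the dye in the fit, since the dwarf pool had Cy5 on 2 of the 3 arrays, gave 0.65 and 0.45.

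The difference between the sisters was taken within each array, where both probes met the same 2 pools. On the log2 scale, gga-miR-181b minus gga-miR-181a was -0.54, -0.39 and 0.51 from array 1 to array 3. The sisters thus differed in opposite directions on arrays 1 and 2 and on array 3. The mean difference was -0.14 with an SD of 0.57, and the exact sign-flip permutation test gave p = 0.75. With the background-subtracted signals the differences were -0.50, -0.26 and 0.75, with a mean of -0.0056, and with the authors' ratios they were -0.52, -0.28 and 0.51. With 3 arrays neither a difference between the sisters nor its absence is shown.

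**Figure D4:**
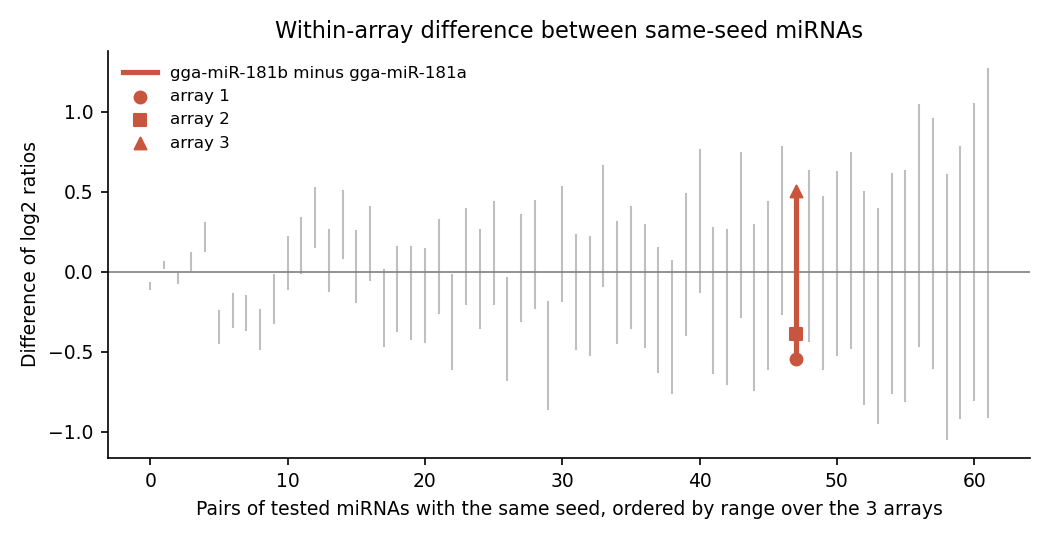
Range over the 3 arrays of the within-array difference of log2 ratios for each of 62 pairs of tested miRNAs that share bases 2 to 8, ordered by that range. The pair of gga-miR-181b and gga-miR-181a is in red, with a symbol for each array, and lies among the wider ranges.

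Other miRNAs with a shared seed gave a scale for this difference. Among the tested miRNAs there were 61 other pairs over 11 seeds, the let-7 family alone giving 28 of them, and pairs that share a miRNA are not independent. The SD between arrays of the difference was 0.57 for the miR-181 pair and had a median of 0.36 over the others (0.020 to 1.09). It was below that of the miR-181 pair in 47 pairs and above it in 14. In 15 of the 61 pairs the difference had the same sign on all 3 arrays, which it did not have for the miR-181 pair. The size of the mean difference, 0.14, was near the median of 0.15 of the other pairs.

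The signals of the sisters over the 6 pools, on the log2 scale, had a Pearson correlation of 0.71. This and the following correlations are descriptions over 6 pools that share arrays and, in twos, an array's normalization. Among the 64 miRNAs above 32 in every pool, the sisters left out, those most like gga-miR-181b were miR-1623 (r = 0.95), miR-1629 (r = 0.90) and miR-100 (r = 0.87). miR-1623 had signals of 420, 267 and 227 for dwarf and 128, 53.8 and 118 for normal chickens. miR-100 had 730, 923 and 723 for dwarf and 484, 506 and 541 for normal chickens. As for gga-miR-181b, the dwarf pools of both lay above the normal pools, and neither passed the test (log2 ratio 0.86, adjusted p = 0.598, and 0.48, adjusted p = 0.651, from limma). Their choice by correlation over these same pools favours such a separation, so it is no separate observation. Those most like gga-miR-181a were miR-107 (r = 0.92), miR-103 (r = 0.91) and miR-106 (r = 0.88). miR-107 had 394, 328 and 265 for dwarf and 302, 180 and 208 for normal chickens, so that its groups overlapped, which the same way of choosing favours. The 3 miRNAs nearest to each sister were thus different ones.

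The study listed 5 predicted regulators of GHR, which were gga-miR-181b, the related miR-16c, miR-16 and miR-15c, and let-7b, and all 5 were tested. None passed the threshold, 3 had a mean log2 ratio above 0 and 2 below, and their median was 0.019, beside 0.046 over all 86. gga-miR-181b had the highest of the 5 at 0.39, and the others lay between -0.12 and 0.044. The study placed the predicted sites of gga-miR-181b, miR-15c, miR-16 and miR-16c away from the stretch of GHR that dwarfs lack. let-7b, the miRNA that the study took furthest as a regulator of GHR, had signals of 9881, 5612 and 6761 for dwarf and 7842, 6262 and 6770 for normal chickens, which overlapped. GHR messenger RNA was not analysed here.

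Marker miRNAs of other cells were set beside these values, since a leg muscle sample also holds blood and vessels and since fewer cells of a type and less RNA per cell cannot be told apart in such a sample. Of the white blood cell miRNAs, 4 of 5 were on the array and 1 was tested, miR-223. Their summed signal was 56.7, 56.0 and 66.4 for dwarf and 73.6, 77.4 and 50.1 for normal chickens, and miR-142-3p and miR-142-5p, which are made in all white blood cells, were below 32 in every pool. miR-155, which was not tested, reached 63.1 in the normal pool of array 2 and made up most of the sum there. Of 2 red blood cell miRNAs, miR-144 was below 32 in every pool, and the sum was 103, 45.0 and 147 for dwarf and 70.6, 64.8 and 45.6 for normal chickens. The vessel miRNA miR-126 had 2513, 3154 and 6129 for dwarf and 4202, 2617 and 2623 for normal chickens. The dwarf pool had less of it on array 1 and more on array 3, the reverse of gga-miR-181a, but more on array 2, like gga-miR-181a. These directions on arrays 1 and 3 were not particular to miR-126, since the log2 ratios of miR-16 and miR-16c had them too. The part of miR-126 in the result was not tested. The liver miRNA miR-122 had 92.3, 183 and 3.96 for dwarf and 136, 163 and 294 for normal chickens. Of the 6 tested muscle miRNAs 5 had a mean log2 ratio below 0 and none passed the test, with a median of -0.14. The muscle miRNA with a mean above 0 was miR-499, which is made from a slow myosin gene and had signals of 13.1, 546 and 484 for dwarf and 2.75, 66.1 and 28.2 for normal chickens (log2 ratio 1.39, standard error 0.41, adjusted p = 0.598 from limma). miR-499 was thus below 32 in both pools of array 1 and far above it in the dwarf pools of the other arrays, and its part in the values of the miR-181 family was not tested.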

How the data were processed

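RNA of 3 dwarf and 3 normal pools was hybridized to 3 two-colour arrays made after miRBase. The deposited scanner files hold linear intensity values for Cy3 and Cy5 per spot, taken as not background-corrected, and the authors also deposited log2 ratios per miRNA whose normalization is not settled by the files. Used as deposited, with no array turned, those ratios correlated at 0.82, 0.88 and 0.89 with the ratios computed here over the 86 tested miRNAs. They were therefore read as dwarf over normal on every array. Their medians over all 542 miRNAs were 0.15, 0.018 and 0.15. The labels name a Norgen kit and the study's methods TRIzol with a clean-up kit for the RNA. Dyes were taken from the labels, and for the ratios computed here array 2 was turned to dwarf over normal.

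Local background was a robust loess surface (span 0.3) of log2 intensity over row and column through the miRNA spots. For ratios, normexp (offset 50) was run on all spots, and loess within arrays (span 0.3, 4 iterations) was fitted to the miRNA spots. The 6 spots were averaged, and limma 3.58.1 in R 4.3.3 tested the mean log2 ratio against 0 with Benjamini-Hochberg adjustment at 0.05. For signals, background was subtracted, the same loess curve was split equally between the dyes, and arrays were scaled to a common median. Signals have arbitrary units and do not give the relative amounts of different miRNAs. Sums over marker lists and levels set beside other probes describe probe signal only. A miRNA was tested if its signal averaged over 32 in dwarf or in normal chickens. The number of arrays limits the precision. Genes were matched by name to the RefSeq table. The alternatives were other background corrections and normalizations, filters, spot summaries, a dye term, log2 signals paired or unpaired, a paired t statistic and leaving out each array. The procedure was also run on simulated data in which the dyes had no difference in signal. That run therefore did not test how loess removes a dye difference, and no result above rests on it.

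Named miRNAs were the 2 members, the passenger strand with a probe, predicted GHR regulators and, for each member, the 3 most correlated miRNAs detected in all 6 pools. The members and lists were chosen with earlier results of these data known. The embryo arrays, messenger RNA arrays and quantitative PCR were not analysed here.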

Additional observations from a re-analysis of the deposited data

How the results depend on the processing

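Under 22 alternatives the log2 ratio stayed above 0 for both members, and no alternative brought either past the threshold (adjusted p 0.112 to 0.998 for gga-miR-181a and 0.393 to 0.998 for gga-miR-181b). In 4 of the 22 the value could not change. The lowest ratio of gga-miR-181b, 0.23, came without background correction. The fit of unpaired pools, with no replicate block, used the log2 signals in place of the normexp ratios and gave 0.71 and 0.70 (adjusted p = 0.698 and 0.476 from limma). The same signals paired by array must have the same means, since each array holds 1 pool of each strain. Only the p-values could differ (adjusted p = 0.491 and 0.460 from limma). Leaving out 1 array gave 0.29 to 0.90 for gga-miR-181a and 0.27 to 0.46 for gga-miR-181b.

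The difference between the sisters turned to 0.021 with plain background subtraction. Leaving out 1 array gave -0.46 (without array 3) to 0.059 (without array 1). The count of miRNAs past the threshold, 0 as reported, was 3 with the GC trend taken out, 1 among miRNAs with a mean signal above 100, and 0 to 2 when 1 array was left out, none of them a member. The cause of these changes was not tested.

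The signal of gga-miR-181b in normal pools was 255.3 with the background from the empty spots and 232 without loess and scaling, and in dwarf pools 363 without loess and scaling and 307 with the median of the spots. Its lowest dwarf pool minus its highest normal pool was -87.9 and -199 under the first and second of these settings, and 82.1 to 112 when 1 array was left out. The second setting keeps the dye difference, so it cannot tell the strains from the dyes. For gga-miR-181a that difference was -192 as reported, -361 and -391 under the same settings and -192 to 38.9 when 1 array was left out. Leaving out 1 array gave mean signals of 639 to 1110 in dwarf and 446 to 638 in normal pools for gga-miR-181a, and of 318 to 327 and 184 to 212 for gga-miR-181b. The upper and lower spots taken apart, a dye term in place of loess (0.66 and 0.37), loess on subtracted spots and the paired log2 signals were added after seeing the data. Under the dye term in place of loess, gga-miR-181b was above 0 on 1 array before the term was fitted.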
